A study of Mus musculus with 9 samples.

Results

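Long intergenic noncoding RNAs (lincRNAs) are RNA polymerase II transcripts from the stretches between protein-coding genes that carry little or no coding sequence. Some work in the nucleus as scaffolds or speckle components, some bind proteins or microRNAs in the cytoplasm, some act on a neighbouring gene, and others serve as precursors of small nucleolar RNAs or microRNAs; most have no known role. In myeloid cells they are known for low levels and for strong differences between cell states. Here they were the 175 genes that GENCODE mouse release M21 types as lincRNA, that lie on autosomes, and whose mean level reached 1 CPM (reads as a share of all gene reads, scaled to a common total) in at least 1 of 3 macrophage groups. The count tables listed 47729 gene identifiers, 2898 of them autosomal lincRNAs, and 1270 of these had at least 1 read. A further 6 lincRNAs on the sex chromosomes reached the same level and were not included. The group means that chose the members also enter the comparisons, so a member that passed through its high group alone had to differ, and counts and medians over the members describe the list without supporting anything. Just outside the rule were Gm26764, Gm29683 and Gm16701, with highest group means of 0.991, 0.995 and 0.999 CPM. Just inside were C030034I22Rik, Gm26780 and Gm17354, with 1.008, 1.012 and 1.013 CPM.

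RNA-seq was carried out on flow-sorted peritoneal macrophages in 9 libraries, 3 from each of 3 populations. All animals were of the genotype Cx3cr1CreERT2-IRES-EYFP/+ Rosa26-stopfl-tdTomato/+, in which a tamoxifen-dependent Cre and EYFP are expressed from Cx3cr1 and tdTomato is switched on by Cre. All received IL-4 complexes (5 µg of IL-4 with 25 µg of anti-IL-4), repeated on alternate days and beginning 4 days ahead of harvest, so every group is in an IL-4-exposed state and no group lacks it. Converted macrophages (Tissue_converted) came from mice given 2 ml of thioglycollate, an irritant that draws monocytes into the cavity, and held on a tamoxifen diet for 10 weeks until harvest. Resident macrophages (Tissue_resident) have no further treatment in the labels. Monocyte-derived macrophages (Monocyte_derived) were collected 4 days after 2 ml of thioglycollate. The sources used here give no sort gates, ages or numbers of animals. They also do not state that the 3 libraries of a population were from different mice; p-values therefore rest on variation among libraries that may be technical. The comparisons ask which lincRNAs differ between converted or resident and monocyte-derived macrophages, and which differ between converted and resident macrophages.

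Libraries held 15220884 to 20496258 gene reads. Of the markers of large cavity macrophages, summed levels were 3720 to 4900 CPM in converted, 3980 to 4200 in resident and 19.8 to 84.7 in monocyte-derived libraries, while general macrophage markers were read in every group. Markers of B cells summed to 39.5 to 95 CPM in converted, 596 to 794 in resident and 12.6 to 32.0 in monocyte-derived libraries. Xist had 0 reads in converted, 2 reads in resident and 3247 reads in monocyte-derived libraries, and the Y-linked Ddx3y averaged 91.4, 90.5 and 0 CPM in converted, resident and monocyte-derived libraries. This sex-linked split runs with the groups, so it and the cell state cannot be told apart in comparisons with monocyte-derived macrophages. In such bulk libraries fewer cells of a type and less RNA per cell cannot be told apart either.

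The lincRNAs were a small and very uneven part of the transcriptome. Together they took 0.201% to 0.212% of gene reads in converted, 0.226% to 0.267% in resident and 0.215% to 0.311% in monocyte-derived libraries. Their summed level was 2110 ± 110 CPM in converted, 2469 ± 199 in resident and 2632 ± 420 in monocyte-derived macrophages (SD, n = 3 each), where CPM is on TMM-scaled library sizes from here on. The converted libraries, at 1993 to 2212 CPM, lay below the resident ones, at 2268 to 2665, and the monocyte-derived ones, at 2226 to 3065, overlapped the resident ones. The highest 4 members held 70.0% of the members' reads and the highest 10 held 80.6%. The median member had a mean level of 1.76 CPM over the 9 libraries, 93 members were under 2 CPM, and 16 were at 10 CPM or more. By group means, 95 members reached 1 CPM in all 3 groups, 16 in converted and resident, 13 in resident and monocyte-derived and 3 in converted and monocyte-derived macrophages. A single group carried the rest: 3 members reached 1 CPM in converted, 15 in resident and 30 in monocyte-derived macrophages alone. The members' exons covered a median of 2249 bases, and 33 members had a single exon block.

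**Figure D1:**
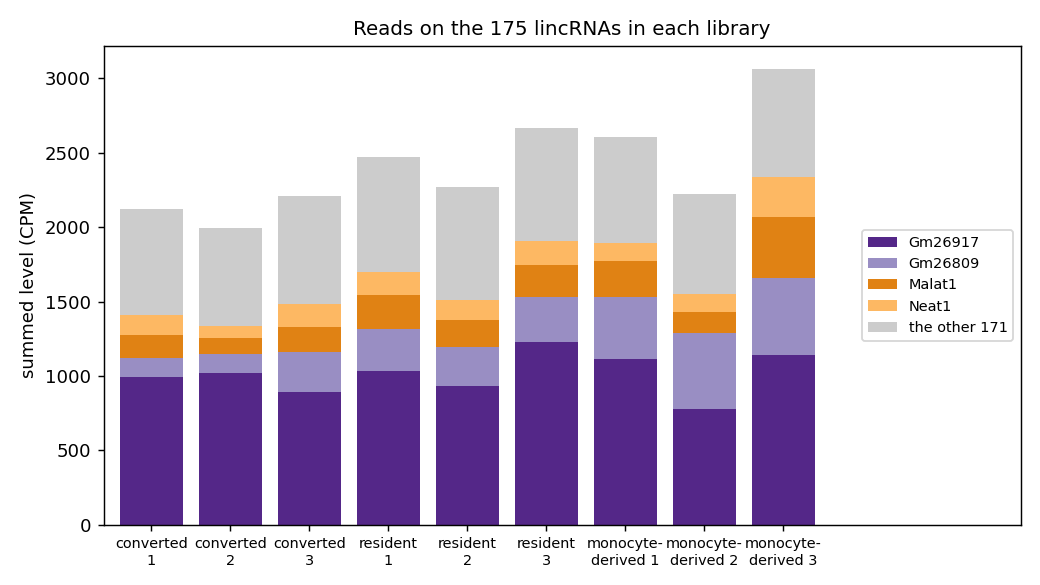
Summed level of the 175 lincRNAs in each library, in CPM on TMM-scaled library sizes; the bars are split into the 4 highest members and the rest. Bars run between 1993 CPM in converted library 2 and 3065 CPM in monocyte-derived library 3, and Gm26917 alone fills between 777 and 1228 CPM of each bar.

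Gm26917 (chr17:39843013-39846341, GRCm38, a single exon block of 3329 bases) held 42.2% of all member reads. Its level was 992, 1023 and 891 CPM in converted, 1034, 935 and 1228 in resident and 1113, 777 and 1141 in monocyte-derived libraries, so all 3 groups overlapped and no comparison called it. The gene ends 12 bases before the locus that RefSeq names Rn18s-rs5, an 18S ribosomal RNA copy, and the part of ribosomal RNA reads in its count was not tested. Without it the summed level was 1141 ± 176 CPM in converted, 1404 ± 60.7 in resident and 1621 ± 263 in monocyte-derived macrophages (SD, n = 3 each).

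Gm26809 (chr6:18844220-18847360, 3 exon blocks) came next and has no described function known here. It stood at 130, 124 and 270 CPM in converted, 281, 258 and 303 in resident and 417, 509 and 514 in monocyte-derived libraries. The monocyte-derived libraries were above all others, and converted library 3 sat with the resident ones, away from its own group. Gm26809 fell in converted against monocyte-derived macrophages (log2 -1.46 ± 0.27 SE, edgeR adjusted p = 0.00146) and in resident against monocyte-derived macrophages (-0.78 ± 0.26, edgeR adjusted p = 0.0333), though the call in resident macrophages was lost in 6 of 16 alternative settings. Converted and resident macrophages were not called different (-0.68, edgeR adjusted p = 0.18), but they were once converted library 3 was left out (edgeR adjusted p = 0.00748).

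Relatives of Gm26809 in sequence did not all move with it. Gm12840 (chr4) shares a stretch of 513 bases at 97.1% identity with Gm26809, and Gm29408 (chr9) matches it over its whole 216 bases at 98.2%. Gm20186 lies on the opposite strand of the Gm26809 locus and matches Gm12840 over 628 bases. Gm12840 had 26.5, 21.8 and 60.1 CPM in converted, 43.5, 44.4 and 49.0 in resident and 17.96, 20.9 and 20.7 in monocyte-derived libraries. It rose in resident against monocyte-derived macrophages (log2 1.20 ± 0.32, edgeR adjusted p = 0.0116), whereas in converted macrophages its call (0.86, edgeR adjusted p = 0.0484) was lost in 12 of 16 alternatives and the value was 0.29 without converted library 3. Gm29408 had 0.840 to 1.24 CPM in converted, 1.47 to 2.69 in resident and 2.93 to 4.91 in monocyte-derived libraries and, like Gm20186, fell in both comparisons with monocyte-derived macrophages (edgeR adjusted p = 0.000682 and 0.019 for Gm29408, 0.00108 and 0.0155 for Gm20186). How the authors' counting placed reads that fit several of these genes is not stated, so each of these values is uncertain.

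Malat1, a nuclear RNA of splicing speckles, had 154, 108 and 168 CPM in converted, 226, 184 and 214 in resident and 239, 141 and 413 in monocyte-derived libraries. All converted libraries lay below the resident ones, without a call (log2 -0.54, edgeR adjusted p = 0.399). Monocyte-derived library 3 was far above the rest of its group and library 2 lay within the converted range. Its fall in converted against monocyte-derived macrophages (log2 -0.88 ± 0.33, edgeR adjusted p = 0.0474) was lost in 11 of 16 alternatives and shrank to -0.41 (edgeR adjusted p = 0.197) without monocyte-derived library 3. Neat1, the architectural RNA of paraspeckles, had 137, 82.7 and 157 CPM in converted, 158, 132 and 164 in resident and 122, 124 and 271 in monocyte-derived libraries. All groups overlapped, the same library 3 was highest, and no comparison called Neat1 (edgeR adjusted p = 0.267, 0.662 and 0.691 for converted against monocyte-derived, resident against monocyte-derived and converted against resident macrophages).

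Among the rest of the 10 highest members, 1810058I24Rik, whose transcript is known to encode a mitochondrial micropeptide in mouse macrophages, averaged 28.3 ± 5.42 CPM in converted, 33.4 ± 3.59 in resident and 49.0 ± 8.3 in monocyte-derived macrophages (SD, n = 3 each). It fell in converted (log2 -0.79, edgeR adjusted p = 0.00313) and in resident macrophages (-0.55, edgeR adjusted p = 0.0199) against monocyte-derived ones, and the call in resident macrophages was lost without monocyte-derived library 2 or resident library 2 or 3. Tmem250-ps, annotated as a lincRNA despite its pseudogene-like symbol, averaged 38.1 ± 1.72 CPM in converted, 39.2 ± 1.46 in resident and 25.2 ± 5.18 in monocyte-derived macrophages, and rose in both populations (log2 0.60 and 0.64, edgeR adjusted p = 0.00512 and 0.00355). 1700020I14Rik, also known as Cyrano or Oip5os1, a conserved RNA that promotes decay of miR-7, was nearly level at 75.9 ± 6.18 CPM in converted, 70.2 ± 0.802 in resident and 65.4 ± 3.09 in monocyte-derived macrophages. Its call in converted macrophages (log2 0.21, edgeR adjusted p = 0.0495) was lost in 13 of 16 alternatives. Gm26880 spread widely within each group, at 32.3 to 64.8 CPM in converted, 21.4 to 45.2 in resident and 22.2 to 40.5 in monocyte-derived libraries, with no call.

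Gm7292 is 99.2% identical over 2537 bases to 2900097C17Rik, the mouse Norad gene, an RNA that sequesters Pumilio proteins. Gm7292 averaged 44.4 ± 5.82 CPM in converted, 37.8 ± 2.29 in resident and 52.7 ± 7.87 in monocyte-derived macrophages, and 2900097C17Rik averaged 3.13 ± 1.18 CPM in converted, 2.79 ± 0.379 in resident and 3.67 ± 1.44 in monocyte-derived macrophages (SD, n = 3 each). How these reads divide between both genes is uncertain. Gm7292 fell in resident against monocyte-derived macrophages (log2 -0.48, edgeR adjusted p = 0.0118; 0.0534 without resident library 1), and 2900097C17Rik was not called in any comparison. Per kilobase of exon, Gm26917 averaged 305 CPM, Gm26809 105, Gm12840 54.0, Malat1 29.4, Gm38832 21.2, Gm26863 14.1, Gm5547 11.9, 1700020I14Rik 8.49 and Neat1 7.21 CPM over the 9 libraries. On that scale the short Gm38832, Gm26863 and Gm5547 stood above Neat1.

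Against monocyte-derived macrophages, converted macrophages had 34 lincRNAs higher and 46 lower of the 174 tested (Gm13391 had too few reads to be tested), at an edgeR adjusted p under 0.05. These were 19.5% and 26.4% of the members tested, beside 25.8% and 24.9% of all 13223 genes; in either direction it was 46.0% of the members, beside 50.7% of all genes. Resident macrophages had 40 higher (23.0%, beside 25.7% of all genes) and 34 lower (19.5%, beside 24.9%), or 42.5% in either direction, beside 50.7% of all genes. The share called was thus not above the background in either comparison. In converted macrophages the median size of the log2 change was 0.82 for the members and 0.47 for all genes. In resident macrophages it was 0.72 and 0.46. All genes were not matched to the members for level. The median level was 1.76 CPM for the members and 28.3 CPM for protein-coding genes under the same rule. Low members were measured less precisely, and the part of this in the size of the changes was not tested. The signed medians were -0.22 for the members and -0.01 for all genes in converted, and 0.16 and 0.00 in resident macrophages. Both comparisons use the same 3 monocyte-derived libraries. Members under 2 CPM (92 tested) were called in 43.5% of cases in converted and 40.2% in resident macrophages. Those at 10 CPM or more (16 tested) were called in 50% and 43.8%. Shares called by level are not given for all genes.

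**Figure D2:**
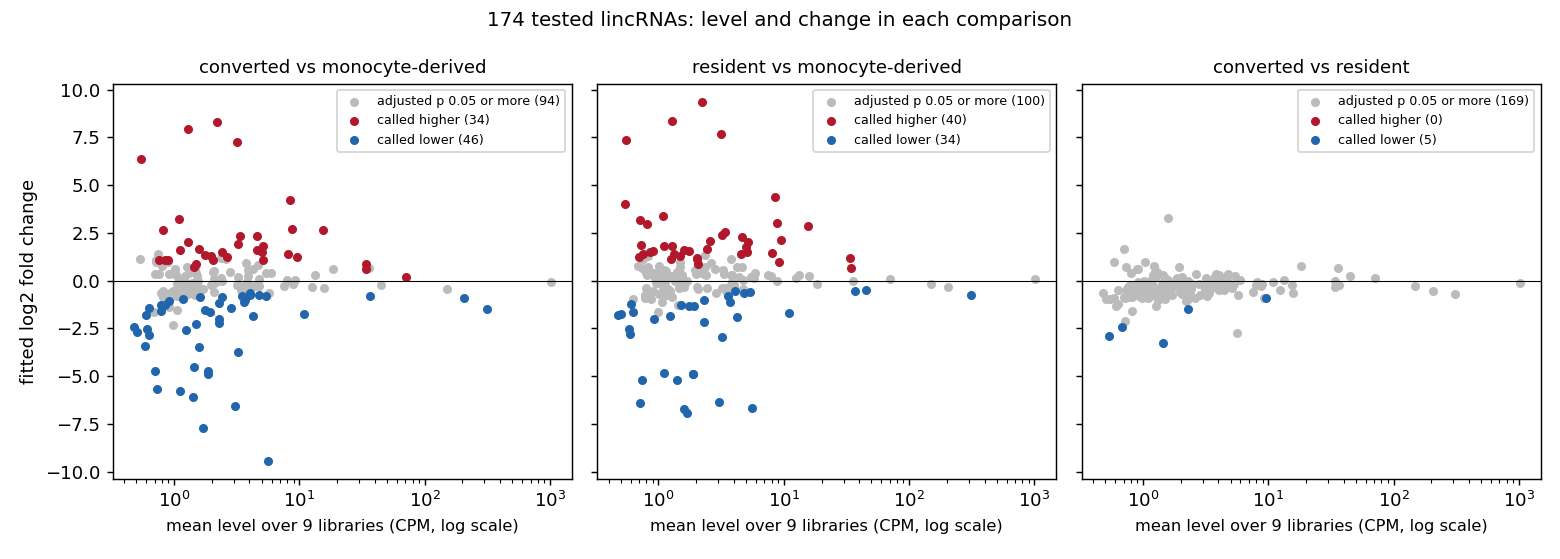
Fitted log2 fold change (vertical axis) against mean level over the 9 libraries (horizontal axis, CPM, log scale) for the 174 tested lincRNAs in each comparison; red points were called higher and blue points lower at an edgeR adjusted p under 0.05. In comparisons with monocyte-derived macrophages 34 and 40 red and 46 and 34 blue points spread over the whole range of levels, while converted against resident macrophages gave 0 red and 5 blue points. Fitted values of members with few or no reads in a group, the farthest from 0, depend on the prior count and are no measure of size.

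Among the members that rose, Gm14005 has a described role in myeloid cells. RefSeq names its transcript Morrbid, an RNA that restrains the neighbouring gene Bcl2l11, which encodes the pro-apoptotic protein Bim, in short-lived mouse myeloid cells. It lies on chr2:128178319-128502765 (minus strand, 16 exon blocks, 4070 exon bases). Its level was 20.9, 17.8 and 21.5 CPM in converted, 23.7, 22.1 and 24.5 in resident and 4.58, 2.71 and 2.14 in monocyte-derived libraries. All 6 converted and resident libraries stood well above the 3 monocyte-derived ones. Gm14005 rose 6.30-fold in converted (log2 2.66 ± 0.23, edgeR adjusted p = 1.1e-05) and 7.37-fold in resident macrophages (2.88 ± 0.23, edgeR adjusted p = 6.54e-06) against monocyte-derived ones. Bcl2l11 went the other way, at 14, 17.8 and 17.5 CPM in converted, 21.1, 20.5 and 19 in resident and 60.7, 51.3 and 64.1 in monocyte-derived libraries (log2 -1.83 and -1.54, edgeR adjusted p = 2.18e-06 and 6.74e-06). The start of Bcl2l11 is 377 kb from the GENCODE start of Gm14005 (128502765). RefSeq starts Morrbid nearer to it, at 128429351. Bcl2l11 was not the gene nearest by start and was looked at for its known relation to Morrbid.

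The RefSeq promoter window of Morrbid, 250 bases before to 50 after the start (chr2:128429302-128429601, minus strand, GRCm38.p6), is shown because it holds a PU.1 core, a site sequence of the macrophage lineage factor PU.1, and an AP-1 sequence beside the start. Capitals mark the PU.1 core GAGGAAGT, whose match begins 17 bases before the start, and the AP-1 sequence TGANTCA, which begins 1 base before it.
Gm14005 (Morrbid): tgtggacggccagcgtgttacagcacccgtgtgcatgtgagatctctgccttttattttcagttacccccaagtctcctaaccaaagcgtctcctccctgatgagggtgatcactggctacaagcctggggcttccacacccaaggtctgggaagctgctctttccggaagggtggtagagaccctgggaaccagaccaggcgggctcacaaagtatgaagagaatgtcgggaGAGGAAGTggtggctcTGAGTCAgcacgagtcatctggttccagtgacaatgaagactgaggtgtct

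Several lincRNAs with no known role were far higher in converted and resident than in monocyte-derived macrophages. Gm38832 (chr6:72162849-72167707, 400 exon bases) had 9.91, 12.1 and 12.98 CPM in converted, 11.8, 15.9 and 11.9 in resident and 0.586, 0.751 and 0.518 in monocyte-derived libraries. The groups were separated by more than any spread within them, with an 18.6-fold rise in converted (log2 4.22 ± 0.24, edgeR adjusted p = 5.51e-07) and 21-fold in resident macrophages (4.396 ± 0.24, edgeR adjusted p = 4.57e-07). Its nearest protein-coding gene, St3gal5, the GM3 ganglioside synthase, starts 65257 bases away on the same strand and rose too (log2 3.27 and 3.15, edgeR adjusted p = 8.21e-08 and 1.06e-07).

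Gm13056 (chr4:141278439-141279794, plus strand) had 4.73, 3.73 and 3.65 CPM in converted and 5.66, 5.50 and 5.04 in resident libraries, against a single read in the 3 monocyte-derived libraries. The ratio to that read was 209 in converted (95% counting interval 37.2 to 8300) and 278 in resident macrophages (49.5 to 11000), with edgeR adjusted p = 1.74e-06 and 1.23e-06. The ephrin receptor gene Epha2 starts 22801 bases away on the same strand, averaged 167 ± 5.62 CPM in converted, 181 ± 13.8 in resident and 6.78 ± 4.75 in monocyte-derived macrophages (SD, n = 3 each), and rose as well (log2 4.60 and 4.72, edgeR adjusted p = 1.07e-05 and 9.26e-06). The RefSeq promoter window of Gm13056 (chr4:141278189-141278488, plus strand, GRCm38.p6) is shown as one with none of the 6 motifs searched, and so has no capitals.
Gm13056: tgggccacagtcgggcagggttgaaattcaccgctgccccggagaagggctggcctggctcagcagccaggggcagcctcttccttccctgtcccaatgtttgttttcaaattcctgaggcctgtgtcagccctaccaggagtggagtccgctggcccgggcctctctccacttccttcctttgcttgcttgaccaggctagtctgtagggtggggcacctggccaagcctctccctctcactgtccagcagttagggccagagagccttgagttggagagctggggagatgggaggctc

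Gm26863 (chr15:38384981-38386300) had 13.5, 10.1 and 9.67 CPM in converted, 14.3, 14.6 and 11.9 in resident and 0.693, 2.48 and 1.94 in monocyte-derived libraries. It rose 6.55-fold in converted (log2 2.71 ± 0.35, edgeR adjusted p = 0.000132) and 8.02-fold in resident macrophages (3.00 ± 0.35, edgeR adjusted p = 7.06e-05), and no monocyte-derived library reached the others. Its nearest gene, Klf10, a zinc-finger transcription factor induced by TGF-beta, rose less (log2 0.88 and 0.96, edgeR adjusted p = 0.00058 and 0.000348). Gm12796 (chr4:101292414-101321745) averaged 4.34 ± 0.518 CPM in converted, 4.96 ± 0.19 in resident and 0.843 ± 0.14 in monocyte-derived macrophages (SD, n = 3 each) and rose in both (log2 2.36 and 2.56, edgeR adjusted p = 1.87e-05 and 1.1e-05). Its nearest gene, the cytokine receptor kinase Jak1, was not called (edgeR adjusted p = 0.0539 and 0.413).

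Gm26584 (chr8:40862395-40865647) averaged 6.44 ± 2.48 CPM in converted, 6.18 ± 0.886 in resident and 1.27 ± 0.2 in monocyte-derived macrophages (SD, n = 3 each) and rose in both (log2 2.34 and 2.28, edgeR adjusted p = 0.000151 and 0.000179). It overlaps Slc7a2, an arginine transporter at 1190 to 3040 CPM in the group means that itself rose, on the opposite strand. With the strand setting not given, reads of both genes cannot be told apart. 1700016F12Rik had 1.84, 0.525 and 4.10 CPM in converted and 5.11, 4.45 and 3.86 in resident libraries, against 0 reads in monocyte-derived libraries. With 3 reads over that group as the floor, it was at least 36.2-fold higher in converted and at least 76.5-fold higher in resident macrophages (edgeR adjusted p = 0.00222 and 0.000805). Of the members, 1700047M11Rik and 1700029M20Rik, named after their values were seen, also had 0 reads in monocyte-derived libraries; the bounds were 28.4-fold and 9.66-fold in converted, and 38.4-fold and 18.7-fold in resident macrophages.

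**Figure D3:**
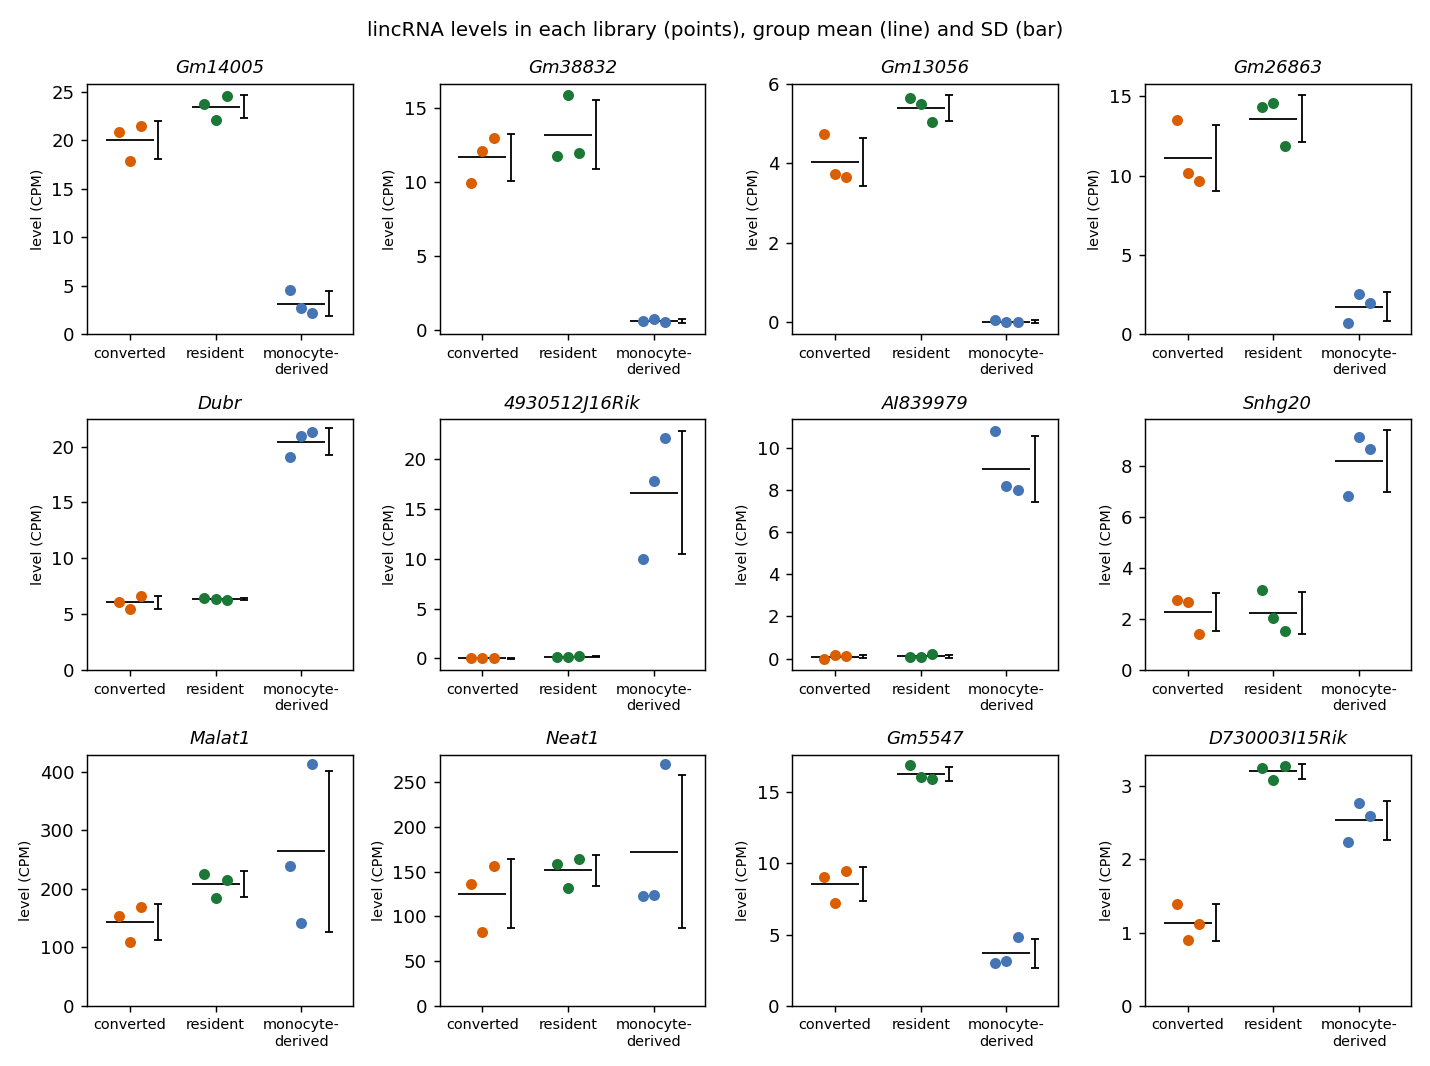
Level in CPM (vertical axis, own scale in each panel) of 12 lincRNAs in each library (points) of converted, resident and monocyte-derived macrophages, with the group mean (line) and SD (bar), n = 3 each. In the top row the monocyte-derived libraries are lowest, in the middle row highest, and in the bottom row the groups overlap for Neat1, while for Malat1, Gm5547 and D730003I15Rik each converted library lies below each resident one.

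Among the members that fell, Dubr is known to promote differentiation of mouse myoblasts. Dubr (chr16:50719294-50732773, minus strand) had 6.08, 5.46 and 6.63 CPM in converted, 6.49, 6.34 and 6.26 in resident and 19.1, 20.96 and 21.3 in monocyte-derived libraries. The spread within each group was small beside the gap to monocyte-derived libraries. Dubr fell by 1.75 ± 0.13 on the log2 scale in converted (edgeR adjusted p = 3.44e-06) and by 1.68 ± 0.13 in resident macrophages (edgeR adjusted p = 4.72e-06). Its RefSeq promoter window (chr16:50732724-50733023, minus strand, GRCm38.p6) is shown with that of 4930512J16Rik (chr6:89285676-89285975, minus strand) as the windows of strongly lower members. Capitals mark a GATA core on the reverse strand in Dubr, 172 bases before the start, and 4930512J16Rik held none of the 6 motifs.
Dubr: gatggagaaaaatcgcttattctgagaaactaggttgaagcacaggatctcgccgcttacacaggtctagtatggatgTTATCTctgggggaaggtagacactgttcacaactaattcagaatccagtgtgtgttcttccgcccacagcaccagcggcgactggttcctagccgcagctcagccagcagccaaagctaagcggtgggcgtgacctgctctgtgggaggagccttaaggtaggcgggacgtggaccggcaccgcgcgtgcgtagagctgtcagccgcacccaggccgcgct
4930512J16Rik: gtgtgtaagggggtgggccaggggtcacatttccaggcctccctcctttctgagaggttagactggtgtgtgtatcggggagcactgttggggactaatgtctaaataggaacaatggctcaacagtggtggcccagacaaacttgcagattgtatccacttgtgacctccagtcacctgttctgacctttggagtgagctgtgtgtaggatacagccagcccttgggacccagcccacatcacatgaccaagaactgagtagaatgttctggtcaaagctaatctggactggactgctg

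4930512J16Rik (chr6:89269511-89285725, minus strand, 5 exon blocks) had 1 read in the 3 converted and 9 reads in the 3 resident libraries, against 839 reads in the monocyte-derived libraries, which stood at 9.96, 17.9 and 22.2 CPM. The ratio of monocyte-derived to converted macrophages was 927 (95% counting interval 166 to 36600; edgeR adjusted p = 1.26e-06), and the gene fell 102-fold in resident macrophages (log2 -6.68 ± 0.45, edgeR adjusted p = 2.25e-06). Plxna1, a semaphorin receptor whose start is 76895 bases away, fell by 1.46 in both comparisons (edgeR adjusted p = 2.09e-05 and 2.17e-05). AI839979 (chr5:31569595-31571397) had 0 to 0.157 CPM in converted and 0.0524 to 0.196 in resident libraries, against 8.02 to 10.8 in monocyte-derived ones (log2 -6.57 and -6.35, edgeR adjusted p = 4.75e-06 and 5.32e-06). Its nearest gene, Mrpl33 of the mitochondrial ribosome, was not called (edgeR adjusted p = 0.79 and 0.65).

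Gm43351 (chr3:130874073-130876824) had 1 read over the converted and 2 over the resident libraries, against 258 reads over the monocyte-derived libraries, which stood at 4.53, 4.91 and 5.69 CPM. The ratio of monocyte-derived macrophages was 285 to converted (95% counting interval 50.7 to 11300) and 144 to resident macrophages (39.6 to 1200), with edgeR adjusted p = 4.17e-06 and 5.09e-06. In another set of 5 members monocyte-derived library 1 stood above the other libraries of its group. 1110002J07Rik, B830042I05Rik, Gm807, AI504432 and Gm11110 had 8.15, 8.15, 8.05, 6.34 and 5.76 CPM in that library. The other monocyte-derived libraries had at most 4.27, 4.92, 2.54, 4.33 and 2.07 CPM of these members. 1110002J07Rik fell by 4.86 in converted and by 4.87 in resident macrophages on the log2 scale (edgeR adjusted p = 2.46e-05 and 2.41e-05), and B830042I05Rik fell by 4.72 and 4.88 (edgeR adjusted p = 0.00019 and 0.000172).

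Gm807 had 22 reads in converted and 2 reads in resident libraries, against 232 reads in monocyte-derived libraries. It fell by 3.46 in converted macrophages on the log2 scale (edgeR adjusted p = 0.000719), and monocyte-derived macrophages had 130 times the level of resident ones (95% counting interval 35.6 to 1080; edgeR adjusted p = 9.36e-05). AI504432 and Gm11110 had 3 reads each in converted and 6 reads each in resident libraries, against 213 and 169 reads in monocyte-derived libraries. Both have their start near that of a gene that also fell. Kcna3, the potassium channel Kv1.3 known from lymphocytes and activated macrophages, starts 3335 bases from AI504432 and fell with it (log2 -5.87 and -4.13, edgeR adjusted p = 0.000421 and 0.00127). Tnfsf9, the ligand of the T-cell receptor 4-1BB, starts 617 bases from Gm11110 and fell too (log2 -3.78 and -3.36, edgeR adjusted p = 3.09e-06 and 5.79e-06). Gm11110 overlaps Tnfsf9 on the opposite strand, so here too the reads of both genes cannot be told apart.

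A list was made of known noncoding genes, every Snhg gene and every symbol that ends in hg or starts with Linc or Lnc. Of its 63 gene symbols, 33 are lincRNAs in this annotation, 3 are typed as protein-coding (Pgghg, Snhg11 and Tunar) and 15 were members. Pgghg was taken by the ending of its symbol alone. In converted against monocyte-derived macrophages 2 of the 15 rose (1700020I14Rik and Gm14005) and 6 fell (Malat1, Dubr, Snhg6, Snhg20, Lncpint and Mir142hg), beside 25.8% and 24.9% of all genes. In resident macrophages Gm14005 rose and Dubr, Snhg6 and Snhg20 fell, beside 25.7% and 24.9% of all genes. Between converted and resident macrophages 0 of the 15 were called, beside 6.07% of all genes. So few members describe this list alone. Of the 18 listed lincRNAs under the rule, 6 had no read in any library.

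The 3 Snhg members, genes named as small nucleolar RNA hosts, differed among themselves. Snhg20, which in this annotation carries a small Cajal body RNA gene and miR-6516, had 2.74, 2.68 and 1.41 CPM in converted, 3.13, 2.04 and 1.52 in resident and 6.82, 9.13 and 8.67 in monocyte-derived libraries, with no overlap. It fell by 1.84 ± 0.32 in converted and by 1.88 ± 0.32 in resident macrophages on the log2 scale (edgeR adjusted p = 0.000875 and 0.000805). Snhg6, host of Snord87, averaged 4.18 ± 0.564 CPM in converted, 4.75 ± 0.047 in resident and 7.20 ± 1.25 in monocyte-derived macrophages (SD, n = 3 each). It fell in converted (log2 -0.78, edgeR adjusted p = 0.00587) and in resident macrophages (-0.60, edgeR adjusted p = 0.0211), the resident call being lost in 5 of 16 alternatives. Snhg12, host of Snora16a, Snora44, Snora61 and Snord99, stayed between 1.99 and 2.79 CPM in all libraries and was not called (edgeR adjusted p = 0.919 and 0.306). Counts of a host gene measure its exons and say nothing of the snoRNAs themselves.

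Lncpint, a p53-induced RNA, had 0.448, 0.525 and 0.562 CPM in converted, 1.10, 0.524 and 0.685 in resident and 0.959, 0.924 and 1.94 in monocyte-derived libraries. It fell in converted macrophages (log2 -1.30 ± 0.43, edgeR adjusted p = 0.0288), a call lost without monocyte-derived library 3 (edgeR adjusted p = 0.107) and in 4 other alternatives. Pvt1, an RNA from the locus next to Myc, averaged 8.26 ± 1.31 CPM in converted, 9.22 ± 0.974 in resident and 9.17 ± 0.511 in monocyte-derived macrophages (SD, n = 3 each) and was not called against monocyte-derived macrophages (edgeR adjusted p = 0.459 and 0.981). AW112010, an inflammation-induced RNA with a translated small frame in mouse macrophages, had 10.7, 12.9 and 13.2 CPM in converted, 20.7, 18.1 and 18.7 in resident and 10.6, 11.2 and 26.3 in monocyte-derived libraries. Monocyte-derived library 3 was the highest of all and its group mates were among the lowest. AW112010 was not called in resident against monocyte-derived macrophages (log2 0.26, edgeR adjusted p = 0.504) but was without that library (edgeR adjusted p = 0.00128).

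Of the members, 6 carry microRNA genes of the annotation, 12 in all, and RefSeq gave 20 mature sequences with 18 distinct seeds. Sequences are shown 5′ to 3′ with the seed (bases 2 to 8) in capitals, for the hosts called in a comparison (the 5p arm alone for miR-191, miR-425 and miR-6516) and for the Mir17hg members that share seeds. miR-142 is known as a haematopoietic microRNA, miR-191 and miR-425 as a widely expressed pair, and the Mir17hg cluster as a driver of proliferation. miR-17 and miR-20a share a seed, and miR-19a and miR-19b share another.
mmu-miR-142a-5p: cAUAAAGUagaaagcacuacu
mmu-miR-142a-3p: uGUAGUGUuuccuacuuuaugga
mmu-miR-191-5p: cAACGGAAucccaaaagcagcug
mmu-miR-425-5p: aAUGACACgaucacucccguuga
mmu-miR-6516-5p: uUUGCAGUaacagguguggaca
mmu-miR-5103: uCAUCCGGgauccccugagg
mmu-miR-17-5p: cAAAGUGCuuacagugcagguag
mmu-miR-20a-5p: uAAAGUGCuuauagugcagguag
mmu-miR-19a-3p: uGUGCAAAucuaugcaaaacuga
mmu-miR-19b-3p: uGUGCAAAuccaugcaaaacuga

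The host of miR-142, Mir142hg (chr11:87755577-87757270), had 0.398, 0.420 and 0.394 CPM in converted, 0.660, 0.734 and 0.782 in resident and 1.39, 0.635 and 1.62 in monocyte-derived libraries. Converted libraries were lowest, and monocyte-derived library 2 lay below the resident ones. Mir142hg fell in converted against monocyte-derived macrophages (log2 -1.57 ± 0.40, edgeR adjusted p = 0.00871) and was not called in resident macrophages (-0.73, edgeR adjusted p = 0.132), where it was without monocyte-derived library 2 (edgeR adjusted p = 0.0252). 4833445I07Rik, host of miR-191 and miR-425 in a head-to-head arrangement with Ndufaf3, had 1.39, 0.682 and 1.07 CPM in converted, 1.87, 2.15 and 2.30 in resident and 1.12, 0.578 and 0.712 in monocyte-derived libraries. It rose in resident against monocyte-derived macrophages (log2 1.38 ± 0.36, edgeR adjusted p = 0.00906) and was not called in converted ones (0.38, edgeR adjusted p = 0.428). Mir17hg had 0.249 to 0.675 CPM in converted and 0.165 to 0.996 in resident libraries, against 4.26, 1.502 and 0.0647 in monocyte-derived libraries. With so wide a spread in that group it was not called (edgeR adjusted p = 0.086 and 0.179), and it was called in both comparisons without monocyte-derived library 3 (edgeR adjusted p = 0.00808 and 0.0205). Gm37233, which carries miR-5103, rose in converted macrophages (log2 0.88, edgeR adjusted p = 0.0349), a call lost in 10 of 16 alternatives. The listed regulator and snoRNA host Epb41l4aos averaged 1.06 ± 0.243 CPM in converted, 1.41 ± 0.41 in resident and 0.993 ± 0.118 in monocyte-derived macrophages (SD, n = 3 each) and was not called (edgeR adjusted p = 0.823 and 0.233). The hosts 2700038G22Rik, of Snord93, and Smkr-ps, of the microRNA gene Gm23049, were at group means of 0.724 to 1.62 CPM and were not called in any comparison. Counts of these hosts do not measure the mature microRNAs.

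Between converted and resident macrophages the differences were few, and the 5 members called were all lower in converted macrophages. They made up 2.87% of the 174 tested, beside 4.26% of all genes called lower; 0 members were higher (0%), beside 1.82% of all genes, and in either direction 2.87% of the members were called, beside 6.07% of all genes. By DESeq2 there were 1 higher and 8 lower, by limma-voom 0 higher and 5 lower, and 25 members had an unadjusted edgeR p under 0.05. In a fit of the 6 converted and resident libraries alone 14 members were lower. The 5 became 1 without converted library 1, resident library 1 or resident library 3, 2 without converted library 2 or resident library 2, and 8 without monocyte-derived library 1. The shares of all genes given here are for the main fit and its adjusted p alone. Counts at the other settings and at unadjusted p therefore have no background beside them. Markers of B cells were lower in converted macrophages too, for 7 of the 8 tested, as were 3 of the 5 T-cell markers tested; their part in the lincRNA results was not tested.

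Gm5547 (chr3:105815540-105817357, 5 exon blocks) had 9.06, 7.19 and 9.44 CPM in converted, 16.9, 16.03 and 15.9 in resident and 3.04, 3.18 and 4.85 in monocyte-derived libraries. The 3 groups were fully separated, with converted macrophages in the middle. Gm5547 fell by 0.93 ± 0.19 against resident macrophages on the log2 scale (edgeR adjusted p = 0.0196), a call lost when any of the 6 converted and resident libraries was left out (highest edgeR adjusted p = 0.0949), and it rose against monocyte-derived macrophages in converted (1.22, edgeR adjusted p = 0.000657) and resident cells (2.15, edgeR adjusted p = 1.72e-05). Its nearest gene, the small GTPase gene Rap1a, was not called between converted and resident macrophages (log2 -0.05, edgeR adjusted p = 0.852).

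D730003I15Rik (chr1:191224454-191226140, a single exon block) had 1.39, 0.892 and 1.12 CPM in converted, 3.24, 3.09 and 3.28 in resident and 2.24, 2.77 and 2.59 in monocyte-derived libraries. Converted macrophages were the low group here, below both others in each library. It fell 2.80-fold against resident (log2 -1.49 ± 0.24, edgeR adjusted p = 0.00774) and 2.21-fold against monocyte-derived macrophages (-1.15 ± 0.25, edgeR adjusted p = 0.00307), and both calls held in all 16 alternatives. Resident and monocyte-derived macrophages were not called different (0.34, edgeR adjusted p = 0.241). The stress-response factor gene Atf3 starts 6415 bases away on the opposite strand. Atf3 averaged 72.9 ± 20.4 CPM in converted, 78.9 ± 4.03 in resident and 290 ± 146 in monocyte-derived macrophages, and was not called between converted and resident macrophages (edgeR adjusted p = 0.899). The RefSeq promoter window of D730003I15Rik (chr1:191224204-191224503, plus strand, GRCm38.p6) is shown for the member whose call in this comparison held in all alternatives; it contains 28 CpG dinucleotides, and capitals mark an AP-1 sequence 11 bases before the start.
D730003I15Rik: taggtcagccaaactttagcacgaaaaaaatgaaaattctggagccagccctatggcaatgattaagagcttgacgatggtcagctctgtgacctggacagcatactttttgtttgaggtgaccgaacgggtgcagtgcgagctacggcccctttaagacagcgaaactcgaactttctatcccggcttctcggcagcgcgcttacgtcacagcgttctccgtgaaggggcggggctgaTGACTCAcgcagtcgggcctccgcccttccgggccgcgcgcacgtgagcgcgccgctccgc

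The other 3 calls, named after their values were seen, were at low levels. 4833407H14Rik had 0, 0.262 and 0.112 CPM in converted, 0.934, 1.31 and 1.42 in resident and 3.04, 1.44 and 4.398 in monocyte-derived libraries (log2 -3.24 ± 0.73 against resident macrophages, edgeR adjusted p = 0.0303). Gm26532 had 12 reads in converted and 67 reads in resident libraries (log2 -2.41 ± 0.60, edgeR adjusted p = 0.0452), and Gm30211 had 10 and 79 reads (-2.90 ± 0.73, edgeR adjusted p = 0.0454). Gm30211 had 4 reads in monocyte-derived libraries, so its level was highest in resident macrophages, as were the summed B-cell markers. Each of these 3 calls was lost in at least 1 of the 16 alternatives.

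AW112010 also separated both groups without a call: its 10.7 to 13.2 CPM in converted lay below the 18.1 to 20.7 CPM in resident libraries (log2 -0.65, edgeR adjusted p = 0.275), and it was called lower without monocyte-derived library 3 and in a fit of the 6 libraries alone (lowest edgeR adjusted p = 0.00514). Over the members, most small differences pointed down in converted macrophages. The fitted log2 change was below 0 for 135 of 174 members (77.6%), with a median of -0.31, beside 0.01 for all genes. The median size of the change was 0.40 for the members and 0.19 for all genes, which were not matched to the members for level. Converted libraries lay wholly below resident ones for 45 members (25.9% of those tested, beside 17.7% of all genes) and wholly above for 8 (4.6%, beside 19.6% of all genes), and the groups overlapped for the other 122. These shares of libraries that do not overlap were not tested.

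**Figure D4:**
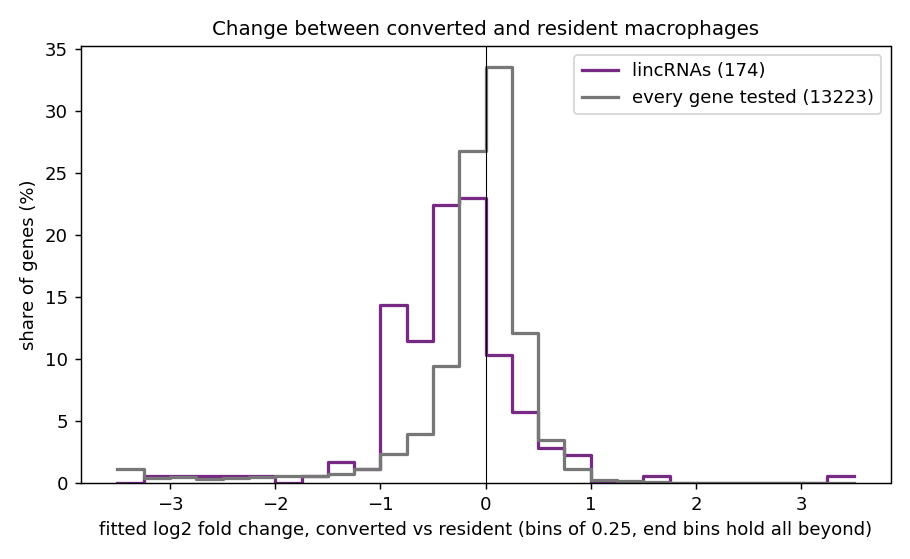
Share of genes (vertical axis, %) by fitted log2 fold change in converted against resident macrophages (horizontal axis, bins of 0.25; the end bins hold all values beyond) for the 174 lincRNAs tested (purple) and all 13223 genes tested (grey). The grey curve peaks at 0 and the purple curve lies to its left, with medians of 0.01 and -0.31.

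The same lean was seen in other noncoding classes chosen by the same 1 CPM rule. The share of genes below 0 in converted against resident macrophages was 80.0% of 110 antisense genes (median -0.29), 78.3% of 115 genes of the provisional TEC class (median -0.33), and 68.0% of 103 processed transcripts (median -0.20), beside 46.1% of 10966 protein-coding genes (median 0.02). Level went with it. Between 0.5 and 2 CPM the median was -0.41 for 91 lincRNAs and -0.25 for 1966 genes of any class, between 2 and 10 CPM it was -0.25 for 66 and -0.09 for 2426, and at 10 CPM or more it was -0.18 for 16 and 0.05 for 8464. Reads in no gene made up 4.03% to 4.39% in converted, 4.73% to 5.66% in resident and 4.02% to 5.07% in monocyte-derived libraries, and genes with a read numbered 18636 to 18677, 19360 to 19922 and 17871 to 18918. The part of these measures in the lean was not tested, and none of the differences between classes was tested.

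Spread between libraries was largest in monocyte-derived macrophages. Over the members at 1 CPM or more in a group, the median coefficient of variation was 19.6% in converted (117 members), 14.2% in resident (139 members) and 28.9% in monocyte-derived macrophages (135 members). Of the 46 members lower in converted macrophages, 19 were highest in monocyte-derived library 3 and 17 in library 1. The median SE of the log2 change in converted against resident macrophages was 0.43 for members under 2 CPM and 0.19 for those at 10 CPM or more.

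Log2 changes of lincRNAs were set beside those of their nearest protein-coding gene. Of the 175 members, 20 were divergent, with the nearest protein-coding start within 2000 bases on the other strand and both genes pointing away from each other. The nearest start was within 100 kb for another 124, whatever the strands, and farther for 31. Across the 98 pairs within 100 kb in which both genes were tested, Pearson's r of the log2 changes was 0.56 in converted against monocyte-derived, 0.51 in resident against monocyte-derived and 0.32 in converted against resident macrophages. Some members overlap a protein-coding gene, and their reads and its reads cannot be told apart; over the 70 pairs within 100 kb without such an overlap, r was 0.55, 0.49 and 0.30. It was 0.29, 0.20 and 0.45 over 19 divergent pairs and 0.03, -0.10 and -0.13 over 16 pairs beyond 100 kb. These are descriptions across genes that share the same libraries, and genes are not independent replicates. Fitted values of members with few or no reads in a group depend on the prior count. They enter r and can weigh heavily in it, and r without them is not given. No r of other pairs of genes is given beside these values. In converted against monocyte-derived macrophages both genes of a pair were called in 30 pairs within 100 kb, 22 in the same and 8 in opposite directions. Without overlaps it was 26 pairs, 20 in the same and 6 in opposite directions. Among divergent pairs both genes were called in 4, with 2 in the same and 2 in opposite directions. In this comparison 46.0% of the members and 50.7% of all genes were called. Pairs of other genes were not counted, so these counts have no background beside them. Among the pairs outside the rule for names, 1700029M20Rik and the epithelial factor gene Grhl3 (log2 5.12 and 6.71, edgeR adjusted p = 0.000135 and 2.37e-05) both rose, and 4833407H14Rik and the ERK phosphatase gene Dusp5 (-5.64 in converted macrophages, edgeR adjusted p = 7.37e-08) both fell there; these pairs were picked after their values were seen.

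**Figure D5:**
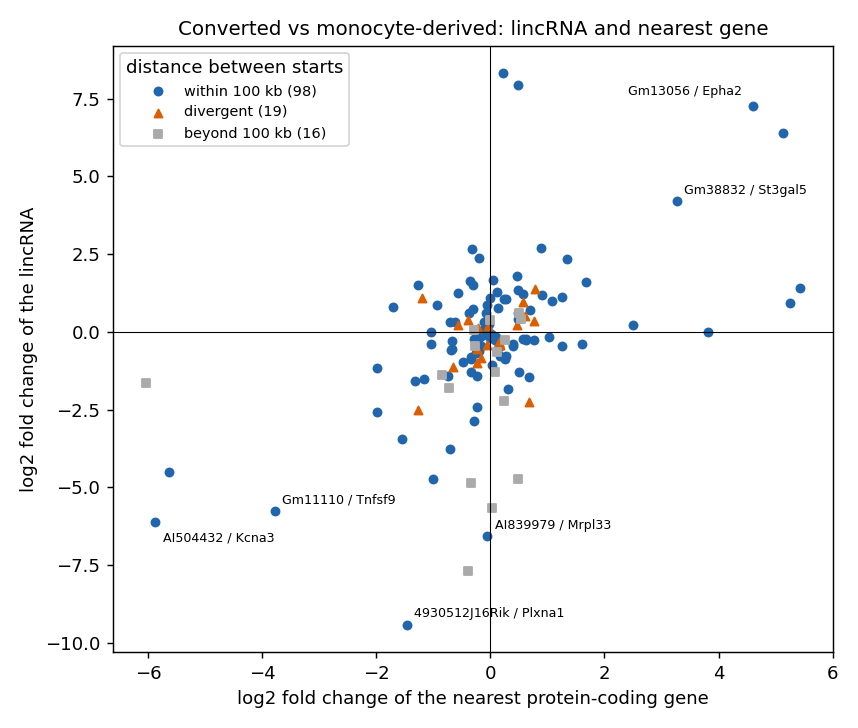
Fitted log2 fold change in converted against monocyte-derived macrophages of each lincRNA (vertical axis) and of its nearest protein-coding gene (horizontal axis), for 98 pairs within 100 kb, 19 divergent pairs and 16 pairs beyond 100 kb. Gm13056 with Epha2 and Gm38832 with St3gal5 lie at the upper right, AI504432 with Kcna3 and Gm11110 with the overlapping Tnfsf9 at the lower left, and AI839979 lies low, with Mrpl33 at -0.05.

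RefSeq held promoter windows of 91 members, 102 windows in all, which were searched on both strands for 6 motifs. Windows of one gene can overlap and repeat a site, so a gene was counted once, if any of its windows held the motif. The PU.1 core GAGGAAGT was found for 13 of the 91 members (14.3%), beside 3.69% of the 27025 genes in the table, the largest gap of the 6. Those genes were not limited to ones read in these cells, as the members were. Whether the gap is particular to lincRNAs was therefore not tested. The windows of Gm10522 and Gm32051 also share the bases around their PU.1 core. It was found for 5 of 21 members (23.8%) higher in converted against monocyte-derived macrophages and for 3 of 26 (11.5%) lower ones, and for 5 of 26 (19.2%) higher and 2 of 14 (14.3%) lower in resident macrophages. The GATA core, TGATAA or AGATAA, the site sequence of the cavity macrophage factor Gata6, was found for 20.9% of the members, beside 21% of all genes. Its share was 33.3% and 23.1% of members higher and lower in converted macrophages, and 30.8% and 35.7% in resident macrophages. The AP-1 sequence TGANTCA was found for 12.1% of the members, beside 8.97% of all genes; the interferon response sequence, GAAA and GAAA with 2 bases between, for 1.1%, beside 3.99%; the NF-kB sequence GGGANTTCC for 2.2%, beside 1.92%; and the TATA box TATAAA for 11%, beside 15.7%. No motif's letters contain another's, and these shares are descriptions with no test.

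For some members the reads may belong to other genes. A stretch of at least 150 bases at 97% identity or more was found in the transcripts of another gene for 25 members, over 50% of a transcript or more for 12 of them. Gm10076, for example, is 99.5% identical over 383 bases to Rpl41, a ribosomal protein gene. A protein-coding gene overlapped 38 members, on the same strand for 8 and on the opposite strand alone for 30. Among the 118 members free of such copies and overlaps, 117 were tested: 28 were higher and 31 lower in converted (50.4%, beside 50.7% of all genes), 34 higher and 23 lower in resident (48.7%, beside 50.7%), and 0 higher and 5 lower in converted against resident macrophages (4.27%, beside 6.07%). The 5 members lower in converted against resident macrophages are thus all among those free of copies and overlaps.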

How the data were processed

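RNA-seq covered 9 libraries of sorted mouse peritoneal macrophages, 3 per group. The authors deposited raw read counts per gene, made with TopHat2 2.1.0 and HTSeq (no version given) on GRCm38, per the submitters' processing notes; their annotation, strand option and treatment of multiply aligned reads are not stated. Symbols, types and coordinates came from GENCODE M21 (47224 of 47729 identifiers matched). Table lines without a gene were dropped before library sizes were summed; reads in no gene amounted to 4.02% to 5.66%.

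All genes went through edgeR 4.0.16 (R 4.3.3, limma 3.58.1): filterByExpr (minimum count 10, minimum total 15), TMM scaling and the robust quasi-likelihood F-test in one fit of all 9 libraries (6 residual degrees of freedom). Benjamini-Hochberg adjustment covered all 13223 genes that passed the filter, and a call is an adjusted p under 0.05. The SE of a log2 change is its size divided by the square root of its F statistic, and is thus approximate. Membership used plain CPM; other levels are CPM on TMM-scaled library sizes. A fold against 0 reads is a bound computed with 3 reads over the group; against 1 to 3 reads a 95% counting interval is given, for counting error alone. Other settings tried were DESeq2 1.42.0, limma-voom, DESeq2 size factors, library totals alone, no filter on low counts, fits of the 2 groups compared, the replicate number as a block, and each library left out in turn. The model was checked on simulated counts. Near-identical copies were sought with blastn among GENCODE transcripts, and promoter and microRNA sequences are from RefSeq (GRCm38.p6).

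Named were the 10 members of highest mean level; per comparison the 6 largest changes in each direction among called members whose groups do not overlap and whose higher group reaches 3 CPM; members on a list of known noncoding genes; hosts of small RNAs; and members beside the 1 CPM rule. The members and lists were chosen with earlier results of these data known. Other lists of cell markers were used as descriptions: in summed CPM of converted, resident and monocyte-derived libraries, macrophage markers had 6280 to 7770, 6590 to 6910 and 3740 to 6350, monocyte markers 250 to 307, 250 to 287 and 593 to 1580, and neutrophil markers 1.46 to 1.69, 0.891 to 2.47 and 10.8 to 43.8. T-cell markers had 0.731 to 4.15, 11.2 to 19.3 and 0.924 to 6.99, NK-cell markers 0.249 to 0.892, 3.14 to 5.13 and 3.68 to 18.3, and dendritic-cell markers 3.25 to 3.88, 5.44 to 5.97 and 9.07 to 22.5. Mast-cell markers had 0.398 to 1.57, 3.68 to 6.65 and 3.12 to 4.79, and eosinophil, mesothelial and fibroblast markers were at most 2.43 in any library, with Epx and Prg2 at 0 reads. The ATAC-seq named in the design text was not analysed here.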

Additional observations from a re-analysis of the deposited data

How the results depend on the processing

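Counts of called lincRNAs against monocyte-derived macrophages stayed within 1.5 times the reported ones, apart from members higher in converted macrophages, which were 22 in place of 34 in a fit of the 2 groups alone. Leaving out 1 library at a time gave 25 to 31 such members. Between converted and resident macrophages the 5 lower members became 8 with DESeq2, 14 in a fit of the 2 groups alone and 3 with a replicate block, and 1 to 8 with 1 library left out. The 0 higher members became 1 with DESeq2 and 0 to 1 with 1 library left out. Why these counts moved was not tested, and shares of all genes at these other settings are not given. Of the calls, 56 of 80 in converted against monocyte-derived, 53 of 74 in resident against monocyte-derived and 1 of 5 in converted against resident macrophages were kept in all 16 alternatives, and 0 changed sign. The summed level without its highest member was 1141 CPM in converted, 1404 in resident and 1621 in monocyte-derived macrophages.

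No pairing of libraries by replicate number was seen. Deviations of same-numbered libraries correlated at -0.094 to 0.065, and 2 of 9 libraries matched best with their own number. With 3 libraries per group this check cannot exclude a pairing, and the labels state none. With the replicate block 30 members were higher and 45 lower in converted, 40 higher and 32 lower in resident against monocyte-derived macrophages, and 0 higher and 3 lower in converted against resident macrophages. Low members were measured less precisely: for the 93 of 175 under 2 CPM the median SE of a log2 change was 0.43 to 0.44, beside 0.19 to 0.20 at 10 CPM or more. They were called in 43.5% and 40.2% of cases in converted and resident against monocyte-derived macrophages, beside 46.0% and 42.5% of all members tested. The share called among all genes of that level is not given.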
